A study of Rattus norvegicus with 31 samples.

Results

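Complement is a set of plasma and tissue proteins that tag cells and debris for removal, and 9 of its genes are described here in irradiated rat testes. They are the 3 chains of C1q (C1qa, C1qb, C1qc), the proteases C1s, C2, Cfd and Cfi, the central component C3 and the inhibitor Serping1. The 9 were taken by symbol from the platform annotation of the array, each by the probe set (the group of array probes that reads 1 transcript) of highest mean signal. Of them, 8 had a probe set of their own, and 6 of these lay over the filter level in all 31 arrays, out of 11387 genes with a kept probe set. C3 and Cfi stayed under the filter, and C2 is covered only by 4 probe sets that the annotation gives to Cfb and C2 together.

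The study measured total RNA of testes from LBNF1 rats, a hybrid strain, 25 to 27 weeks old, with Affymetrix arrays. All rats had received 6 Gy of radiation to the lower abdomen, so every group shares the irradiation and no unirradiated group is present by treatment. In the first group of 6 arrays the rats were given estradiol together with hormone ablation. Their labels speak of supplementation with follicle-stimulating hormone (FSH) but list estradiol among the agents, and the group is read as the series design gives it. In the second, of 11 arrays, they had hormone ablation alone, that is, an antagonist of gonadotropin-releasing hormone plus flutamide, which blocks the androgen receptor. In the last group, of 14 arrays, they had a sham treatment. Of the sham arrays, 10 carry a description as control testes and 4 as irradiated testes, although their treatment labels are the same. The estradiol arrays were deposited later than the other 25, so estradiol and deposit cannot be told apart. The arrays are labelled biological replicates, no label says how the rats were caged or processed, and p-values measure only the spread between these samples.

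In the classical pathway C1q binds antibody or dying cells and activates the proteases C1r and C1s, of which C1s cleaves C4 and C2. In the alternative pathway Cfd cleaves Cfb, and both routes meet in cleavage of C3, while Serping1 blocks C1r and C1s and Cfi degrades the active fragments of C3 and C4. C1q is made mainly by macrophages, which lie between the seminiferous tubules of the testis next to the Leydig cells, whereas liver supplies most other plasma components and Cfd, also called adipsin, is best known from fat.

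Values are MAS5 signals on a log scale read as log2, and a level of 1 probe set is not set against that of another. Array medians lay between -1.44 and -1.24, and the filter level, set at the 40th percentile within an array, between -1.93 and -1.75. Some markers of Sertoli cells, the supporting cells of the testis tubules, gave signal over the filter level in every array. Of 10 such markers listed, 8 had a probe set and 5 passed the filter, while Amh, Rhox5 and Krt18 did not pass. The mean over the 5 that passed lay between 2.66 and 3.07 in the estradiol arrays, between 2.69 and 3.11 in the ablation arrays and between 2.19 and 2.57 in the sham arrays. Sham replicates 6 and 7 stood apart, because Prm1 and Tnp1, whose proteins compact the DNA of spermatids, were both over the 90th percentile there (Prm1 at 5.78 and 3.99, Tnp1 at 3.56 and 1.28). They matter for the complement genes: of the 14 sham arrays these had the lowest and the next lowest value of C1qa, C1qb, C1qc, C3 and Cfd. Ablation replicate 4 did not pass that limit in both genes, but its Prm1 of 4.18 and Tnp1 of 1.14 were close to those of sham replicate 7. Its C1qb value of -0.36 was the highest of the ablation arrays, while its C1qa value of 0.81 was the ablation median. In C1qc (0.71) and Cfd (0.04) this array lay inside the range of the other ablation arrays. For the 6 genes that passed the filter and the shared Cfb and C2 probe sets, comparisons with sham are therefore given also without sham replicates 6 and 7. That exclusion was chosen after these values were seen, and it kept ablation replicate 4.

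The C1q chains, Cfd and Serping1 fell with hormone ablation, and no difference passed between ablation with and without estradiol. A probe set is called where its adjusted p in limma was under 0.05. Of the 6 complement genes tested, 5 were called lower with ablation and none higher, where 19.4% of all 21269 kept probe sets were called and 10.3% called lower. C1s was the gene not called. Their median log2 change was -0.74, beside 0.02 over all probe sets. Between estradiol plus ablation and ablation 0 of 6 were called, by limma, where 5.52% of all probe sets were, although C1qb, C1s and Cfd had an unadjusted p under 0.05, and the median was 0.12 beside -0.03. Between estradiol plus ablation and sham 4 of 6 were lower and 0 higher (C1qa, C1qb, C1qc and C1s), where 14.5% of probe sets were called and 10.4% called lower, and the median was -0.54 beside -0.03. These comparisons share arrays, the ablation arrays in the first and second and the sham arrays in the first and the third, so their changes are not independent. Groups without any overlap were seen in 0 of the 6 genes in each comparison, and in 1.77%, 1.55% and 2.8% of all kept probe sets in the same order. In RNA of whole testis, fewer cells of a type and less RNA per cell cannot be told apart.

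**Figure D1:**
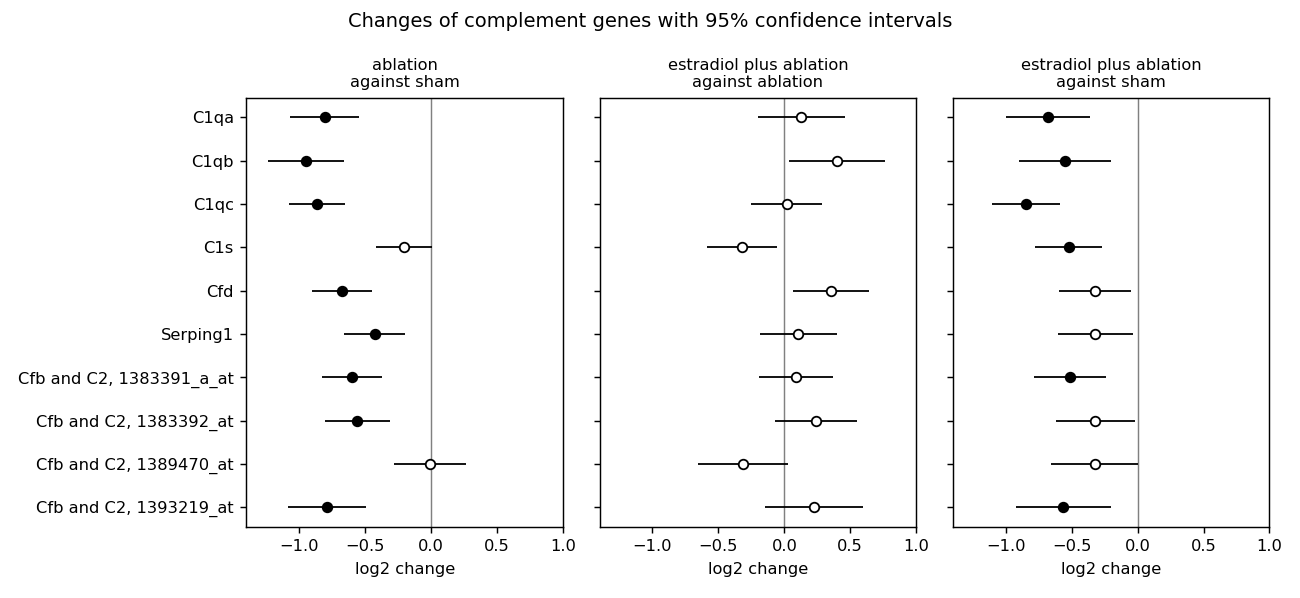
Log2 change with 95% confidence interval of the 6 tested genes and the 4 shared Cfb and C2 probe sets, a panel per comparison. Filled points passed an adjusted p of 0.05, as 5 of the 6 genes did between ablation and sham, 0 between estradiol plus ablation and ablation and 4 between estradiol plus ablation and sham.

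The 3 chains of C1q fell with ablation, between 1.75-fold and 1.93-fold below sham, and did not pass the test between the estradiol and the ablation arrays. C1qa ranged between 0.62 and 1.26 with a median of 1.00 in the estradiol arrays, between 0.36 and 1.14 with a median of 0.81 in the ablation arrays, and between 0.53 and 2.15 with a median of 1.75 in the sham arrays. Most sham arrays were high, and the overlap with both other groups came from sham replicates 6 (0.99) and 7 (0.53). C1qa was 1.75-fold lower with ablation than with sham (log2 change -0.81 ± 0.13, SE, 11 against 14 arrays, limma adjusted p = 1.31e-05), with all 11 ablation arrays under the sham mean. Between estradiol plus ablation and ablation the change was 0.13 (95% interval -0.20 to 0.46, limma adjusted p = 0.76), and between estradiol plus ablation and sham it was -0.68 ± 0.16 (limma adjusted p = 0.00207).

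C1qb, the second chain, had values between -0.70 and 0.02 with a median of -0.20 in the estradiol arrays. They lay between -1.18 and -0.36 with a median of -0.60 in the ablation arrays, and between -0.82 and 1.01 with a median of 0.41 in the sham arrays. The estradiol arrays sat between the other groups, with 4 of 6 above every ablation array and all 6 under the sham mean. The difference from ablation was 0.40 ± 0.18 (95% interval 0.03 to 0.76), which did not pass after adjustment over all probe sets (unadjusted p = 0.0331, limma adjusted p = 0.242). Against sham, C1qb was 1.46-fold lower with estradiol plus ablation (log2 change -0.55 ± 0.17, limma adjusted p = 0.0257). That call was lost without estradiol replicate 2 (-0.46, adjusted p = 0.0939) or 6 (-0.51, adjusted p = 0.0708), after quantile normalization (adjusted p = 0.0589), with only the 2 groups in the fit (adjusted p = 0.0558) and against the 4 sham arrays with an irradiated description (adjusted p = 0.0588).

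C1qc was the remaining chain. Its values lay between 0.44 and 0.86 with a median of 0.57 in the estradiol arrays, between 0.20 and 0.88 with a median of 0.65 in the ablation arrays, and between 0.86 and 1.91 with a median of 1.48 in the sham arrays. Of the ablation arrays, 10 of 11 lay below every sham array, and of the estradiol arrays 5 of 6. C1qc was 1.82-fold lower with ablation than with sham (log2 change -0.86 ± 0.11, limma adjusted p = 7.61e-08) and 1.80-fold lower with estradiol plus ablation than with sham (-0.85 ± 0.13, adjusted p = 5.99e-06). The estradiol and ablation arrays had a difference of 0.02 with a 95% interval of -0.25 to 0.29.

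Without sham replicates 6 and 7 the C1q groups came apart, which follows in part from the choice of arrays. These arrays were left out knowing that their values of all 3 chains were the lowest of the sham group. The separation is therefore no independent support for the fall. All 11 ablation arrays then lay below all 12 sham arrays in each of the 3 chains, and all 6 estradiol arrays lay below them in C1qa and C1qc, while 4 of 6 did in C1qb. Of all 21269 kept probe sets, 1.73% had such separate and lower groups for ablation and 2.54% for estradiol plus ablation. The log2 changes with ablation became -0.95 for C1qa, -1.10 for C1qb and -0.96 for C1qc (limma adjusted p of 1.91e-09, 2.68e-09 and 1.3e-09), and the adjusted p for C1qb with estradiol plus ablation against sham became 0.000285. With estradiol plus ablation the changes from sham became -0.82 for C1qa, -0.70 for C1qb and -0.94 for C1qc. This exclusion leaves the arrays of 12 sham testes, 8 described as control and 4 as irradiated.

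**Figure D2:**
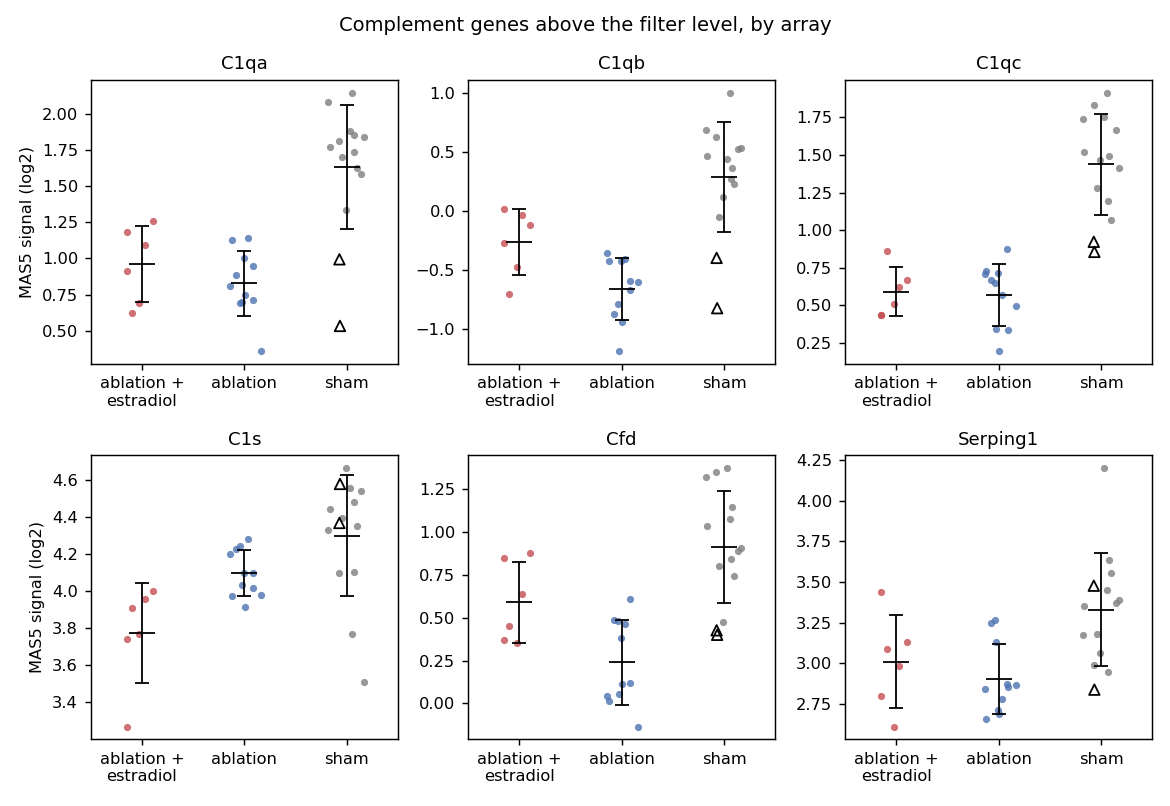
MAS5 signal (log2) of the 6 complement genes that passed the filter, 1 point per array, for ablation with estradiol (6 arrays), ablation (11) and sham (14), with the mean and SD of each group as bars. Open triangles are sham replicates 6 and 7, which lie at the bottom of the sham group in C1qa, C1qb, C1qc and Cfd but not in C1s.

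The genes of the 3 chains lie side by side in RefSeq's order for the rat assembly GRCr8, as C1qb, C1qc and C1qa on chromosome 5. RefSeq promoters were at hand for C1qa, C1qb, C3, Cfd and Cfi. Those of C1qa and C1qb, which lie on either side of C1qc and both fell with ablation, are printed as the 250 bases before the start, in the direction of the gene. C1qa lies at chr5:154419934-154420183 and C1qb at chr5:154407828-154408077, both on the minus strand of GRCr8, and capitals mark matches to the searched motifs on either strand.
C1qa: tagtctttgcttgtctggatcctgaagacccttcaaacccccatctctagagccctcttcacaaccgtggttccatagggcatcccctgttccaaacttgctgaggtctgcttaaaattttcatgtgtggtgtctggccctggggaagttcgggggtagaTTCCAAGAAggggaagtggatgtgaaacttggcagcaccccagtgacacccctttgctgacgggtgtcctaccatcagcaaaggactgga
C1qb: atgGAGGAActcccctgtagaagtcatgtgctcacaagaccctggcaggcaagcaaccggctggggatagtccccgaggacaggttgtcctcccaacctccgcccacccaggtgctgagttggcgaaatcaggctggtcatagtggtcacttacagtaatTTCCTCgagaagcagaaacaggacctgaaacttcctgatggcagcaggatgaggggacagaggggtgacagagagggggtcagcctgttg
The capitals in C1qa match TTCNNNGAA, a motif of STAT factors, with its first base 90 bases before the start, and 7.67% of 33469 RefSeq promoters of this length hold one. Those in C1qb match GAGGAA, a core read by the myeloid factor PU.1, at 247 bases before the start and, on the other strand, at 90. Any match to GAGGAA on either strand is held by 23.3% of promoters, and the share with a pair of matches was not worked out. The palindromic estrogen response element was in none of the 5 promoters and in 0.0239% of all. The interferon response element (3.41% of all) and the TATA box TATAAA (12.9%) were in none of the 5 either. The shorter nuclear receptor motif AGGTCA (14.1%) was in that of C3. A match describes letters in this window and was not tested as a site.

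C1s, the protease at the end of the C1 complex, passed in 1 comparison, that of estradiol plus ablation with sham. It lay between 3.27 and 4.00 with a median of 3.84 in the estradiol arrays, between 3.91 and 4.28 with a median of 4.10 in the ablation arrays and between 3.51 and 4.66 with a median of 4.38 in the sham arrays. All 3 groups overlapped, and 4 of 6 estradiol arrays lay below every ablation array. C1s was 1.44-fold lower with estradiol plus ablation than with sham (log2 change -0.52 ± 0.13, limma adjusted p = 0.00318). Neither ablation against sham (-0.20, 95% interval -0.41 to 0.01, adjusted p = 0.183) nor estradiol plus ablation against ablation (-0.32, 95% interval -0.59 to -0.05, adjusted p = 0.18) passed. Ablation against sham did pass without sham replicate 5 (-0.26, adjusted p = 0.0388) and after quantile normalization (adjusted p = 0.0428), and with the replicate block the difference of estradiol plus ablation from sham had an adjusted p of 0.062. Without sham replicates 6 and 7 the changes from sham were -0.17 with ablation and -0.49 with estradiol plus ablation (limma adjusted p of 0.28 and 0.00763).

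Serping1, which encodes the inhibitor of C1r and C1s, fell with ablation by a smaller step. Its values lay between 2.61 and 3.44 with a median of 3.04 in the estradiol arrays, between 2.66 and 3.27 with a median of 2.85 in the ablation arrays and between 2.84 and 4.20 with a median of 3.36 in the sham arrays. All 11 ablation arrays were under the sham mean and 4 of them under every sham array. The gene was 1.34-fold lower with ablation than with sham (log2 change -0.43 ± 0.11, limma adjusted p = 0.00681). Estradiol plus ablation differed from ablation by 0.11 (95% interval -0.19 to 0.40) and from sham by -0.32 (95% interval -0.60 to -0.04, adjusted p = 0.128). Without sham replicates 6 and 7 the changes from sham were -0.46 with ablation and -0.35 with estradiol plus ablation (limma adjusted p of 0.00426 and 0.0932).

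Cfd, the protease that starts the alternative pathway, fell with ablation as well. It ranged between 0.35 and 0.88 with a median of 0.55 in the estradiol arrays, between -0.14 and 0.61 with a median of 0.12 in the ablation arrays and between 0.40 and 1.37 with a median of 0.90 in the sham arrays. Of the ablation arrays 7 of 11 lay under every sham array, and all 6 estradiol arrays lay over the ablation mean and under the sham mean. Cfd was 1.60-fold lower with ablation than with sham (log2 change -0.68 ± 0.11, limma adjusted p = 2.36e-05). Without sham replicates 6 and 7 this change became -0.76 (limma adjusted p = 1.51e-06). Estradiol plus ablation differed from ablation by 0.35 ± 0.14 (95% interval 0.06 to 0.64, unadjusted p = 0.018, adjusted p = 0.169) and from sham by -0.32 ± 0.14 (adjusted p = 0.115), which without sham replicates 6 and 7 became -0.41 with an adjusted p of 0.0262. Of 10 genes listed as fat cell markers, 5 were tested, and limma called 0 in any of the 3 comparisons, with 0 at an unadjusted p under 0.05 as well.

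C3 and Cfi gave no usable level. C3 exceeded the filter level in 1 of 6 estradiol arrays, 0 of 11 ablation arrays and 4 of 14 sham arrays, and Cfi in 1 sham array alone. C3 lay between -2.68 and -1.74 in the estradiol arrays, between -4.61 and -1.89 in the ablation arrays and between -4.16 and -1.35 in the sham arrays. Cfi lay between -5.77 and -2.65 in the estradiol arrays, between -5.23 and -2.27 in the ablation arrays and between -5.92 and -1.76 in the sham arrays. In a fit over all 31042 probe sets without the filter neither was called in any comparison, with limma adjusted p of 0.395 for C3 and 0.624 for Cfi between ablation and sham.

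The 4 probe sets shared by Cfb and C2, neighbours on chromosome 20, cannot be assigned to either gene. Cfb takes the place of C2 in the alternative pathway. Of the 4, 3 fell with ablation: 1383391_a_at by 0.60 on the log2 scale (limma adjusted p = 0.00011), 1383392_at by 0.56 (adjusted p = 0.000804) and 1393219_at by 0.79 (adjusted p = 0.000111). The first pair have consecutive numbers and may have been made from 1 sequence entry, so their results may share a source. The fourth, 1389470_at, averaged -0.55 ± 0.31 in ablation arrays and -0.54 ± 0.32 in sham arrays (SD, n = 11 and 14, adjusted p = 0.974). Between estradiol plus ablation and ablation 0 of 4 passed in limma, also at an unadjusted p under 0.05, with changes between -0.32 and 0.24. Against sham, estradiol plus ablation was lower in 1383391_a_at (-0.51, adjusted p = 0.00689) and 1393219_at (-0.56, adjusted p = 0.0254), and the second of these calls was lost without estradiol replicate 2 (adjusted p = 0.0507) or 6 (-0.47, adjusted p = 0.105). Without sham replicates 6 and 7 the changes with ablation were -0.57 for 1383391_a_at, -0.55 for 1383392_at, -0.87 for 1393219_at and -0.04 for 1389470_at. Their limma adjusted p were 0.000426, 0.00181, 3.21e-05 and 0.877. Those with estradiol plus ablation were -0.48, -0.31, -0.64 and -0.36 in that order (limma adjusted p of 0.0157, 0.195, 0.00972 and 0.171).

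**Figure D3:**
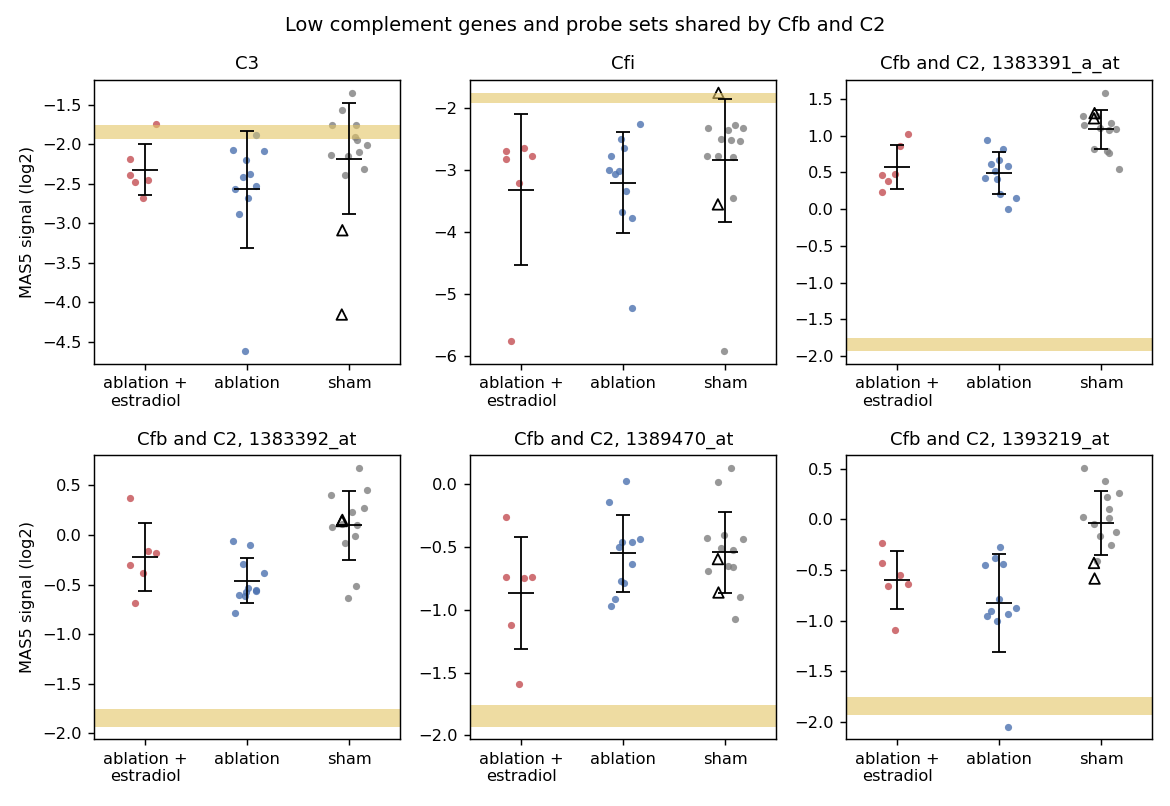
MAS5 signal (log2) per array of C3, Cfi and the 4 probe sets shared by Cfb and C2, for ablation with estradiol, ablation and sham, with group mean and SD. The yellow band spans the filter levels of the 31 arrays, between -1.93 and -1.75, triangles are sham replicates 6 and 7, and most points of C3 and Cfi lie under the band.

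The rest of the complement system moved in part. Of 49 further complement genes listed, 35 had a probe set named here and 27 were tested. With ablation 8 were lower and 1 higher than with sham, with a median of -0.07, where 10.3% of all kept probe sets were called lower and 9.15% higher. Vtn, which encodes vitronectin, an inhibitor of the membrane attack complex, was 2.55-fold lower (log2 change -1.35 ± 0.17, limma adjusted p = 1.66e-07). Fcna, a ficolin that starts the lectin pathway, was 1.97-fold lower (-0.98 ± 0.13, adjusted p = 2.2e-07), and Cd59b, a membrane inhibitor of the same attack complex, was 1.25-fold lower (-0.33 ± 0.09, adjusted p = 0.00649). The higher gene was Masp2, a protease of the lectin pathway, at 1.33-fold (0.41 ± 0.10, adjusted p = 0.00378).

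The other lower genes were close to the threshold. C1r, the partner and chromosomal neighbour of C1s, changed by -0.32 (limma adjusted p = 0.0472), C4bpb, a chain of a C4 inhibitor, by -0.29 (adjusted p = 0.0462), Masp1 by -0.22 (adjusted p = 0.0446) and C1qbp, a mitochondrial protein that can bind C1q, by -0.30 (adjusted p = 0.0497). Leaving out 1 array at a time ended these calls in 20, 15, 15 and 17 of 25 fits in that order, with adjusted p of up to 0.0735, 0.108, 0.0934 and 0.0942. C5ar1, the receptor for the fragment C5a, changed by -0.31 (adjusted p = 0.0284), a call lost without ablation replicate 2, 5, 10 or 11 (adjusted p of up to 0.0577).

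With estradiol added, 2 of the 27 were lower and 1 higher than with ablation alone, where 4.92% of all kept probe sets were called lower and 0.592% higher. Masp2 lay between -1.04 and -0.38 in the estradiol arrays, between -0.03 and 0.44 in the ablation arrays and between -0.73 and 0.20 in the sham arrays. No estradiol array reached the range of the ablation arrays, and the gene was 1.97-fold lower (log2 change -0.98 ± 0.13, limma adjusted p = 4.17e-06). Groups that do not overlap were seen in 1.55% of all probe sets in this comparison. Vtn was 1.75-fold lower (-0.81, adjusted p = 0.0174), a call lost without estradiol replicate 5 (-0.47, adjusted p = 0.104). Susd4, an inhibitor of the C3-cleaving enzymes, was 1.57-fold higher (0.65, adjusted p = 0.0395), a call lost in 9 of 17 fits without 1 array, namely ablation 2, 4, 5, 6, 9 or 11 or estradiol 1, 3 or 4 (adjusted p of up to 0.105).

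Set against sham, estradiol plus ablation had 7 of the 27 lower and 1 higher, where 10.4% of all kept probe sets were called lower and 4.15% higher. Vtn was 4.47-fold lower (log2 change -2.16 ± 0.21, limma adjusted p = 4.12e-10), with all 6 estradiol arrays below every sham array, and 2.8% of all probe sets had groups that do not overlap. C1r was 1.51-fold lower (-0.60 ± 0.14, adjusted p = 0.0025), Cd59b 1.53-fold (adjusted p = 4.42e-05) and Fcna 1.65-fold (adjusted p = 0.000744). Masp1 (-0.36) and Masp2 (-0.57) were lower as well, calls that were lost against the 4 sham arrays with an irradiated description (limma adjusted p of 0.149 for Masp1 and 0.104 for Masp2). Susd4 was 1.72-fold higher (adjusted p = 0.00309). C5ar1 (-0.37, adjusted p = 0.0345) lost its call without sham replicate 4 or 12 or estradiol replicate 1, 2 or 5 (adjusted p of up to 0.144).

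**Figure D4:**
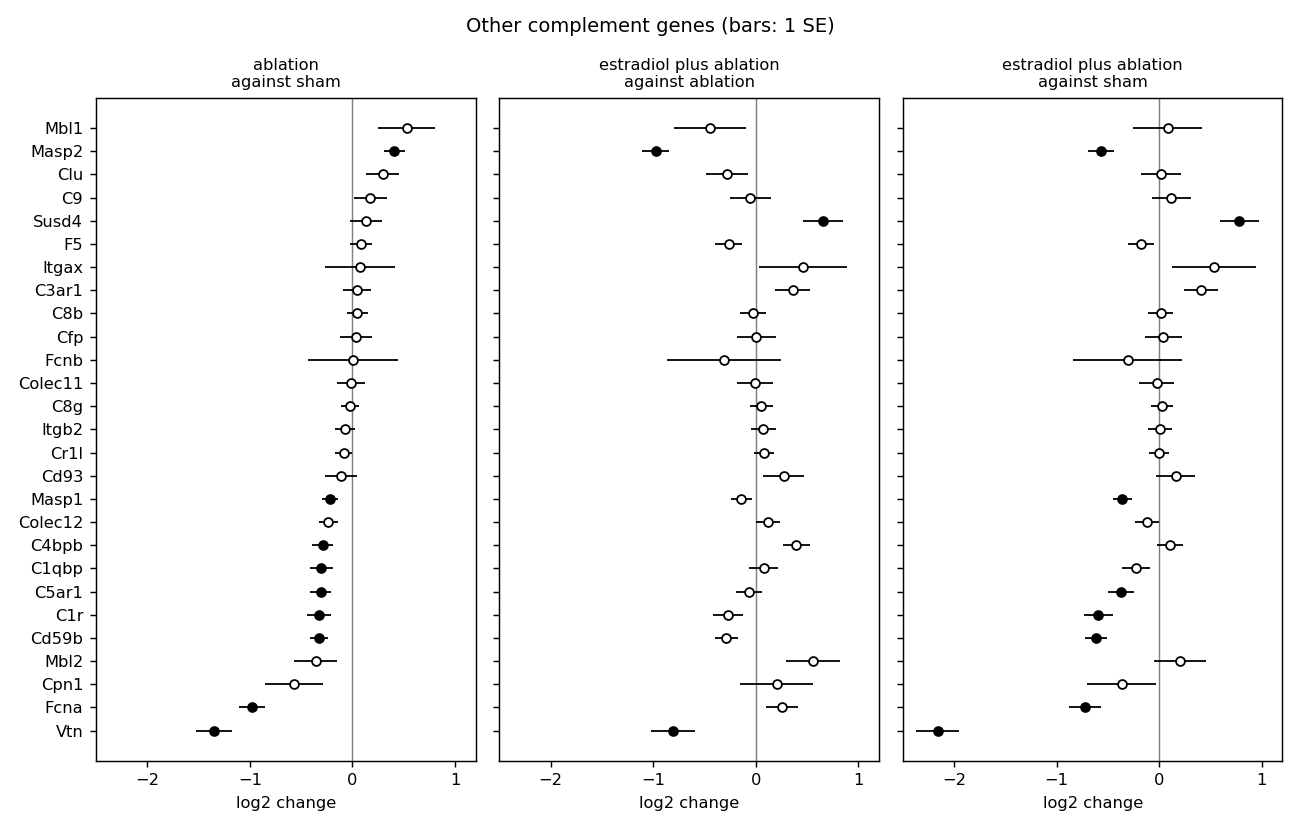
Log2 change with 1 SE of the 27 further complement genes tested, a panel per comparison, in the order of their change with ablation. Filled points passed an adjusted p of 0.05; Vtn and Fcna lie farthest below 0 in the first panel, and Masp2 changes side between the first panel (0.41) and the second (-0.98).

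Some marker genes of macrophages were lower in the comparison in which the C1q chains fell. Of 20 markers listed, 17 had a probe set and all 17 were tested. Against sham, ablation had 9 of the 17 lower, 0 higher and 8 not called, where 10.3% of all kept probe sets were called lower and 9.15% higher. Cd163, a scavenger receptor of resident macrophages, averaged 0.24 in ablation arrays and 1.25 in sham arrays. Mrc1, the mannose receptor, changed by -0.69, Ctss, a lysosomal protease, by -0.60 and Aif1 by -0.85. The list mean lay between -0.22 and 0.15 in the estradiol arrays, between -0.32 and 0.36 in the ablation arrays and between -0.04 and 0.61 in the sham arrays. Between estradiol plus ablation and ablation limma called 0 of 17, with 0 at an unadjusted p under 0.05, and against sham 5 were lower and 0 higher, where 10.4% of all kept probe sets were called lower. Adgre1, a surface receptor widely used to mark macrophages, changed by 0.19 with ablation (limma adjusted p = 0.437). Ptprc, which marks all white blood cells, changed by -0.15 with ablation (limma adjusted p = 0.482), and Trem2 lay under the filter level on average in each group. The part of the macrophage genes in the change of C1q was not tested.

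Markers of other testis cells changed in the same comparison, where 10.3% of all kept probe sets were called lower and 9.15% higher. Among 8 markers of Leydig cells ablation had 5 below sham and 2 above it, and the list mean lay between 0.94 and 1.59 in the ablation arrays and between 2.39 and 3.09 in the sham arrays. Insl3, a hormone of Leydig cells, changed by -4.49, and Cyp17a1, an enzyme of androgen synthesis, by -2.20. The 2 Leydig cell markers above sham were Hsd3b1 (0.39, limma adjusted p = 0.0364) and Lhcgr (0.35, adjusted p = 0.0183). Nr5a1 was not called (-0.27, limma adjusted p = 0.121), so the list did not move as 1. Of 10 fibroblast and matrix markers 6 were lower and 0 higher, with list means between 0.30 and 0.90 in the ablation arrays and between 1.30 and 1.73 in the sham arrays, and the collagen gene Col1a1 changed by -2.63. Of 8 markers of peritubular myoid and smooth muscle cells 4 were lower and 0 higher, with list means between -0.25 and 0.33 in the ablation arrays and between 0.04 and 0.73 in the sham arrays. Of 7 endothelial markers tested, 2 were lower and 0 higher. Of the 5 Sertoli cell markers that passed the filter, out of 10 listed, 3 were higher and 0 lower, among them Inhbb, an inhibin chain (1.49). Of 5 spermatogonia markers tested, 3 were higher and 1 lower, with list means between -1.39 and -0.61 in the ablation arrays and between -2.38 and -0.73 in the sham arrays. Of 4 spermatid markers tested, 0 were called. The part of these cell types in the complement results was not tested.

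Some defining markers of fat and liver lay under the filter. In the fat cell list Lep, Fabp4, Cidec and Pparg did not pass the filter, and Adipoq, the defining adipokine, averaged -1.73 in the estradiol arrays, -1.73 in the ablation arrays and -1.84 in the sham arrays, near the filter level. Lipe, a lipase of fat cells that also acts in steroid-making cells, was higher, with averages of 0.45 in the estradiol arrays, 0.60 in the ablation arrays and 0.63 in the sham arrays. The 5 tested fat cell markers had a list mean between -1.49 and -0.87 in the estradiol arrays, between -1.51 and -0.81 in the ablation arrays and between -1.79 and -0.97 in the sham arrays. In the list of liver and plasma proteins Alb, Apoa1, Fga and Fgg did not pass, and 1 of 4 tested, the haptoglobin gene Hp, was lower with ablation than with sham, averaging -1.55 in ablation arrays and 1.23 in sham arrays (log2 change -2.78). Of 16 interferon-responsive genes tested, 6 had lower values with ablation than with sham and none higher ones, beside the same 10.3% and 9.15% of all kept probe sets, among them Psmb8 (-0.76), Psmb9 (-0.70), Mx1 (-0.62) and Irf7 (-0.39). Their part in the complement results was not tested.

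Taken over all groups, 10 pairs among the C1q chains, Cfd and C3 had deviations that correlated. The values are deviations from the group means in all 31 arrays, with 28 pairs of genes tested by permutation within groups and adjusted over the 28. C1qa and C1qb had a Pearson r of 0.83 and a Spearman rho of 0.70 (permutation p = 1e-05 and 2e-05, adjusted p = 0.000187 and 0.00056), and an r of 0.66 without the 2 arrays farthest out. C1qb and C1qc had an r of 0.71 and a rho of 0.61 (permutation p = 2e-05 and 0.00099, adjusted p = 0.000187 and 0.00818, r of 0.55 without the farthest 2). C1qa and Cfd had an r of 0.72 and a rho of 0.67 (permutation p = 2e-05 and 0.00013, adjusted p = 0.000187 and 0.00182, r of 0.62 without the farthest 2). By r, 10 of 28 pairs passed, all of them among C1qa, C1qb, C1qc, Cfd and C3, and 4 of the 10 were pairs of C3, which lay under the filter level. By rho 7 pairs passed. Without the farthest 2 arrays, r was 0.40 for C1qa and C1qc, 0.36 for C1qb and Cfd and 0.37 for C1qc and Cfd. With C3 it was then 0.26 for C1qa, 0.56 for C1qb, 0.29 for C1qc and 0.55 for Cfd. The share of pairs that pass among other genes was not worked out, so the correlation is not shown to be particular to complement genes. Within single groups some of these pairs had an r near 0: C1qb and Cfd had 0.30 in the estradiol arrays, -0.01 in the ablation arrays and 0.78 in the 14 sham arrays. None of the pairs with C1s passed, and their r lay between -0.38 and 0.04. The smallest p these permutations can give is 1e-05.

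Part of this pattern rested on sham replicates 6 and 7, and without them 4 of 28 pairs passed by r and 2 by rho. C1qa and C1qb then had an r of 0.63 and a rho of 0.63 (permutation p = 0.00058 and 0.00062, adjusted p = 0.0119 and 0.0174), and C1qa and Cfd an r of 0.61 and a rho of 0.56 (permutation p = 0.00085 and 0.00283, adjusted p = 0.0119 and 0.0396). C1qb and C1qc had an r of 0.52 (permutation p = 0.00569, adjusted p = 0.0398) and C1qb and C3 an r of 0.53 (permutation p = 0.00292, adjusted p = 0.0273). The last pair includes C3, which did not pass the filter. C1qa and C1qc no longer passed (r = 0.36, permutation p = 0.0579, adjusted p = 0.232), and their r over all arrays was 0.63. By group, C1qa and C1qb had an r of 0.71 in the 6 estradiol arrays, 0.45 in the 11 ablation arrays and 0.74 in the remaining 12 sham arrays, while the r of C1qb and C1qc was -0.55 in the estradiol arrays, 0.60 in the ablation arrays and 0.78 in the 12 sham arrays. Differences between groups in r were not tested.

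**Figure D5:**
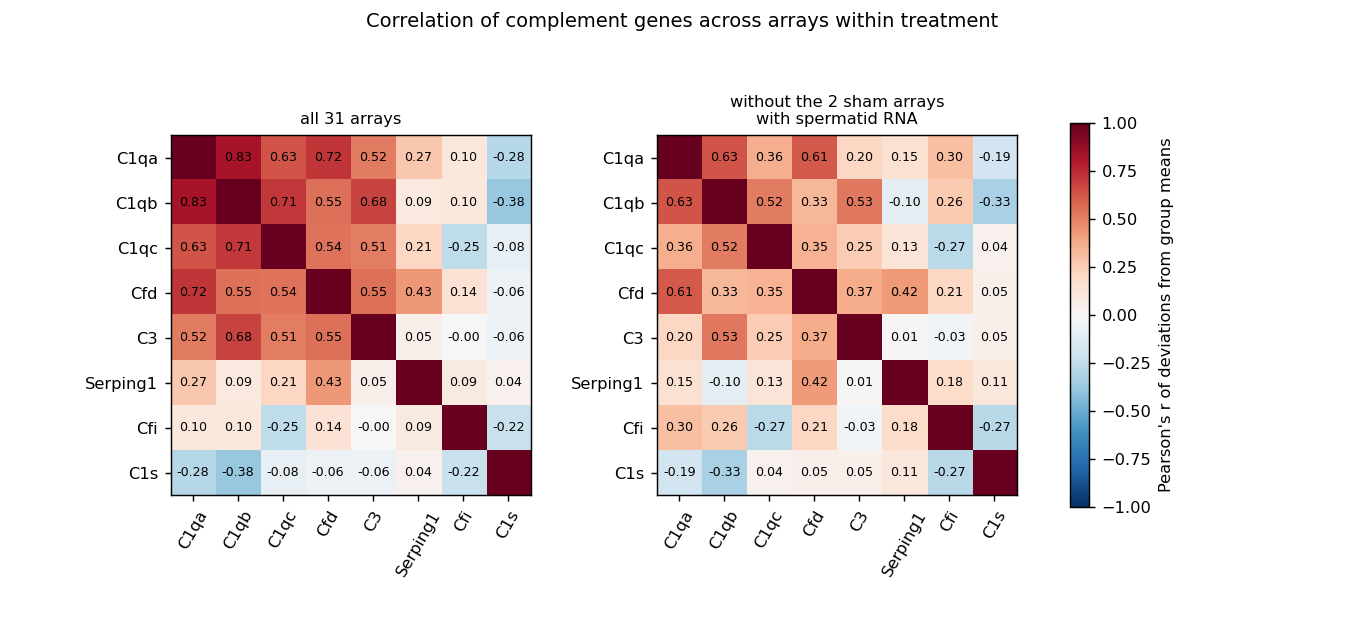
Pearson's r between complement genes over arrays, from deviations from group means, in all 31 arrays (left) and without sham replicates 6 and 7 (right), the diagonal being each gene with itself. The block of C1qa, C1qb, C1qc, Cfd and C3 is paler on the right, where for example the r of C1qa and C1qb is 0.63 beside 0.83 on the left.

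The mean of the 17 macrophage markers and C1qa had an r of 0.55 and a rho of 0.52 (permutation p = 0.00146 and 0.00411, adjusted over 8 genes p = 0.0117 and 0.0329), and an r of 0.38 without the 2 arrays farthest out. For C1qb r was 0.46 and rho 0.27 (permutation p = 0.00925 and 0.158, adjusted p = 0.037 and 0.211), and for the other 6 genes the adjusted p of r was 0.0715 or more.

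The genes whose array-to-array pattern was most like that of a complement gene were found among 11381 genes by Pearson's r over the same 31 deviations, as a description. Fcgrt, which encodes the neonatal Fc receptor, was among the closest 3 of all 3 C1q chains, with an r of 0.73 for C1qa, 0.75 for C1qb and 0.74 for C1qc. For C1qa the others were Dnase1l3 (0.79) and Ptp4a3 (0.75), for C1qb Gcn1 (0.75) and Folr1 (0.71), and for C1qc Retreg2 (0.76) and Adam15 (0.72). C1s was closest to App (0.86), Prkar1a (0.85) and Aldh1a1 (0.85). Serping1 was closest to P4hb (0.86), Ctdp1 (0.85) and Zfp706 (0.82), and Cfd to Tspan4 (0.77), Grcc10 (0.74) and Rarres2 (0.73). The points of all these r share the 2 sham arrays with spermatid RNA.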

How the data were processed

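The deposited values are MAS5 signals on a log scale, per the submitters' processing notes, and were used as log2 because the base is not stated; the MAS5 version and scaling are not given in the sources used here. Of 31099 probe sets, 57 controls were left out, and 21269 were kept that exceeded the 40th percentile of their array in at least 6 arrays. Genes were named through the platform annotation, and current symbols through RefSeq by Entrez number for 20758 probe sets. Differences were fitted in limma 3.58.1 (R 4.3.3) on all 31 arrays in 3 groups, with variances moderated along a trend, and 2-sided p-values adjusted over the kept probe sets with the Benjamini-Hochberg method. Calls need an adjusted p under 0.05. The scripts were tested on simulated data. Correlations used scipy 1.17.1 in Python 3.11.15, on deviations from group means, with 100000 permutations within groups. The design allowed for a pair of every 2 of the 9 genes, and with no probe set of its own for C2 there were 28 pairs.

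The 9 genes, the gene lists and the tests were chosen with earlier results of these data known. Named were all 9 genes, every further complement gene called in at least 1 comparison, up to 4 called markers per list with the smallest adjusted p, and the 3 genes most like each of the genes described. Ptprc, Trem2, Adgre1, Adipoq, Lipe, Hsd3b1, Lhcgr, Nr5a1 and the markers said to be under the filter were named in addition after their values were seen. The main fit did not pair arrays by replicate number, and the labels do not say whether same-numbered arrays belong together. Deviations of same-numbered arrays correlated between -0.0856 and 0.0467 for ablation and sham (11 pairs). For estradiol plus ablation and ablation they correlated between -0.182 and 0.0594 (6 pairs). For estradiol plus ablation and sham the range was -0.0107 to 0.376 (6 pairs, 3 over 0.1), so pairing was not settled there. Alternatives were filters, scalings, moderation, arrays left out, sham arrays by description and the replicate number as a block. The number of arrays limits the precision, and no array was imputed.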

Additional observations from a re-analysis of the deposited data

Results flagged for a closer look

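Among 12 complement probe sets, the 6 estradiol arrays were searched for an array far from the others, which chance alone marks in about 1 of 20 groups. C1s was 3.27 in estradiol replicate 5, with the next value at 3.74. Without that array the difference of estradiol plus ablation from ablation was -0.22, and from sham -0.42 (limma adjusted p = 0.0216). Cfi was -5.77 in estradiol replicate 2, with the next value at -3.22, all of them under the filter level.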

How the results depend on the processing

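Counts of called complement genes stayed within 1.5 times the reported count in all alternatives run. Leaving out 1 array at a time gave 5 to 6 genes for ablation against sham, 0 for estradiol plus ablation against ablation and 3 to 4 for estradiol plus ablation against sham, and 3724 to 4455, 830 to 1205 and 2540 to 3197 probe sets. Against the 4 sham arrays with an irradiated description, 2345 probe sets were called for ablation and 1702 for estradiol plus ablation against sham, with fewer sham arrays by construction. Without sham replicates 6 and 7, an alternative chosen after seeing the data for these values, 4 pairs of genes correlated rather than 10, and 3 and 2 genes rather than 0 had separate groups. The sign of small differences turned, and the cause was not tested: C1qc between estradiol plus ablation and ablation was -0.051 with the replicate block, and -0.0362 to 0.0481 when 1 array was left out, below 0 without ablation 6, 7 or 9 or estradiol 2. For 1389470_at, ablation against sham was 0.15 with the sham arrays described as irradiated, 0.084 without ablation 2 and sham 1 together, and -0.067 to 0.0419 when 1 array was left out, above 0 without ablation 2, 6, 7 or 11 or sham 1, 3 or 10. For 1383391_a_at, estradiol plus ablation against ablation was -0.0017 to 0.158 when 1 array was left out, below 0 without estradiol 3.

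With the replicate number as a block, C1s (-0.41, adjusted p = 0.062) and 1383391_a_at (-0.44, adjusted p = 0.0717) lost their call between estradiol plus ablation and sham. In that comparison 3 of 6 same-numbered pairs of arrays correlated over 0.1. The block changed no other call of the 9 genes or the shared probe sets. Some settings moved shared probe sets over the threshold: estradiol plus ablation against sham was -0.44 for 1383392_at without estradiol 5 (adjusted p = 0.0442), and with the sham arrays described as irradiated the adjusted p was 0.0673 for 1383391_a_at and 0.171 for 1393219_at.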
